A study of Mus musculus with 21 samples.

Results

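The MCM helicase and its licensing factors were followed in the livers of Mdr2-/- and control mice after removal of part of the liver. The set was made of every probe set whose platform gene symbol was Mcm2, Mcm3, Mcm4, Mcm5, Mcm6, Mcm7, Mcm10, Cdt1, Cdc6 or Gmnn, which gave 10 genes of 12393 and 23 probe sets of 22690. Expression microarrays measured total RNA of whole liver on 21 arrays from 12 male mice aged 9 months, which had undergone 30% partial hepatectomy. The groups were Mdr2-/- mice (KO, strain FVB129P2) on day 0 (n = 6), day 2 (n = 3) and day 6 (n = 3), and control mice (strain FVB129P2/FVBNJ) on day 0, day 2 and day 6 (n = 3 each). Day 0 was the lobe taken at surgery, and 6 KO and 3 control mice gave both a day 0 and a later sample. Mdr2, now named Abcb4, encodes the canalicular phospholipid transporter of hepatocytes, and mice without it develop chronic cholestatic liver inflammation. The 2 strain labels differed with genotype, so strain and genotype cannot be told apart. Values are log2 GCRMA signals, and a difference of 1 is a doubling of the signal. In a bulk sample, a larger number of proliferating cells and more RNA per cell cannot be told apart.

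Before DNA can be copied, each replication origin has to be licensed. The origin recognition complex, with Cdc6 and Cdt1, loads the Mcm2-7 ring, a hexamer of related ATPases, onto DNA, where it later becomes the motor of the replicative helicase. Geminin, the product of Gmnn, binds Cdt1 and blocks a further round of loading, and Mcm10 acts when the loaded helicase is activated. Quiescent hepatocytes express many of these genes at a low level, and E2F transcription factors are known activators of many of them as cells enter the cycle.

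Promoter sequences of the members were taken from RefSeq (GRCm38.p6, 250 bases before to 50 bases after an annotated start of the gene), with a window for 8 of the 10 genes. They were searched on both strands for 4 words of the E2F type, TTTCCCGC, TTTCGCGC, TTTGCCGC and TTTGGCGC. A word was found in 6 of the 8 genes (75.0%), namely Mcm3, Mcm5, Mcm6, Mcm7, Cdt1 and Cdc6, and in 4.74% of the 6017 tested genes with a window. Over all 32851 windows the share was 2.26%. The 3 genes below whose day 6 response differed between the genotypes are shown because their windows hold such words, and Mcm10 is shown as the member whose values ran apart from the rest. Capitals mark the E2F words. They overlap into 1 longer run in Mcm5 and at the first place in Mcm6.
Mcm5, chr8:75109259-75109558, plus strand: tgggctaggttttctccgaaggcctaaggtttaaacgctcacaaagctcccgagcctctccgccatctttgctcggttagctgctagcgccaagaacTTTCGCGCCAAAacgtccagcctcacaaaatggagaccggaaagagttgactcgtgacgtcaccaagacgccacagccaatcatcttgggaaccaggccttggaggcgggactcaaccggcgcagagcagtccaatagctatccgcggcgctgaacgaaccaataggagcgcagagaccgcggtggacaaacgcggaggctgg
Mcm6, chr1:128359656-128359955, minus strand: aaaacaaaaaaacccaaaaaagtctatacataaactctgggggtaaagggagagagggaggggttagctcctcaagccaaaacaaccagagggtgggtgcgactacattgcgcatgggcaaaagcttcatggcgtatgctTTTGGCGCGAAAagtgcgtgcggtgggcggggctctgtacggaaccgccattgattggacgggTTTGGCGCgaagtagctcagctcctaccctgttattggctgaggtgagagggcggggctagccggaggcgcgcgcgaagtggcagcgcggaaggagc
Mcm7, chr5:138171834-138172133, minus strand: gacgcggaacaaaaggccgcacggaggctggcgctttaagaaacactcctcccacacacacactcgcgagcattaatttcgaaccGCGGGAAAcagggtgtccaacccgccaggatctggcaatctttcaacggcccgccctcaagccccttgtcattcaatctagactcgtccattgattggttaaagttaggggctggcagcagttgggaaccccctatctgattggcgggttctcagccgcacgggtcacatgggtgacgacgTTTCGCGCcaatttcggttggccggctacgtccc
Mcm10, chr2:5012742-5013041, minus strand: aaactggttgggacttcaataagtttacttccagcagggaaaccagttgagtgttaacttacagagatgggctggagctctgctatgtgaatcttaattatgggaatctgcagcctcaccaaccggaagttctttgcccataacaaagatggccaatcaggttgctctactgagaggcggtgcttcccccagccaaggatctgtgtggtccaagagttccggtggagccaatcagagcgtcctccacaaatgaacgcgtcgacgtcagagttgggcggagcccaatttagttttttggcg
Counted from the annotated start that each window was built on, the words began at -165 and 17 in Mcm7, and the first began at -153 in Mcm5 and at -110 in Mcm6. In Mcm7 that start lies inside the gene's RefSeq span, which on the minus strand begins at 138172111. The Mcm7 word at -165 thus falls within the gene. The Mcm5 and Cdc6 windows were also built on a start inside the span. A second annotated start of Mcm7 had none of these words in its window. Neither Mcm2 nor Mcm10 had one, and a missing word says only that these letters are not in the window. The CCAAT word was in 6 of the 8 genes (75.0%), against 43.2% of tested genes with a window. The matches are a description of the sequence and show no binding.

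The quality of the arrays was read from 3 measures. Abcb4 lay between 7.25 and 8.96 on the 12 KO arrays and between 9.23 and 10.33 on the 9 control arrays, so the genotype labels did not cross. The 10 hepatocyte markers averaged 13.28 to 13.37 on the control day 2 arrays, below the 13.54 to 13.89 of the other 18 arrays. The Gapdh 3 prime minus 5 prime difference, which grows as RNA is broken down, was 2.03 in KO mouse 337 on day 0, 9.50 in control mouse 265 and 1.58 in control mouse 263 on day 2, and 0.94 in control mouse 303 on day 6. Control mouse 303 on day 6 stood apart for the members: it was the highest of the 21 arrays for 17 of the 23 probe sets. Member differences that were called and include it are given with and without it.

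Of the 10 genes, 9 passed the filter on low values (log2 above 4 on at least 3 arrays), which 7320 genes passed. Mcm2 and Mcm5 passed only through the control day 6 arrays, so these genes had to differ there. Cdc6 failed the filter, and 15 of the 23 probe sets passed it. Each gene was read from its probe set with the highest mean. Log2 4 lies near the array medians of 3.8 to 4.1. A group mean at or under 4 is called near the floor below, and a difference from it may understate the change. Called below means an adjusted p under 0.05 in the limma fit, with Benjamini-Hochberg adjustment over all 7320 genes.

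**Figure D1:**
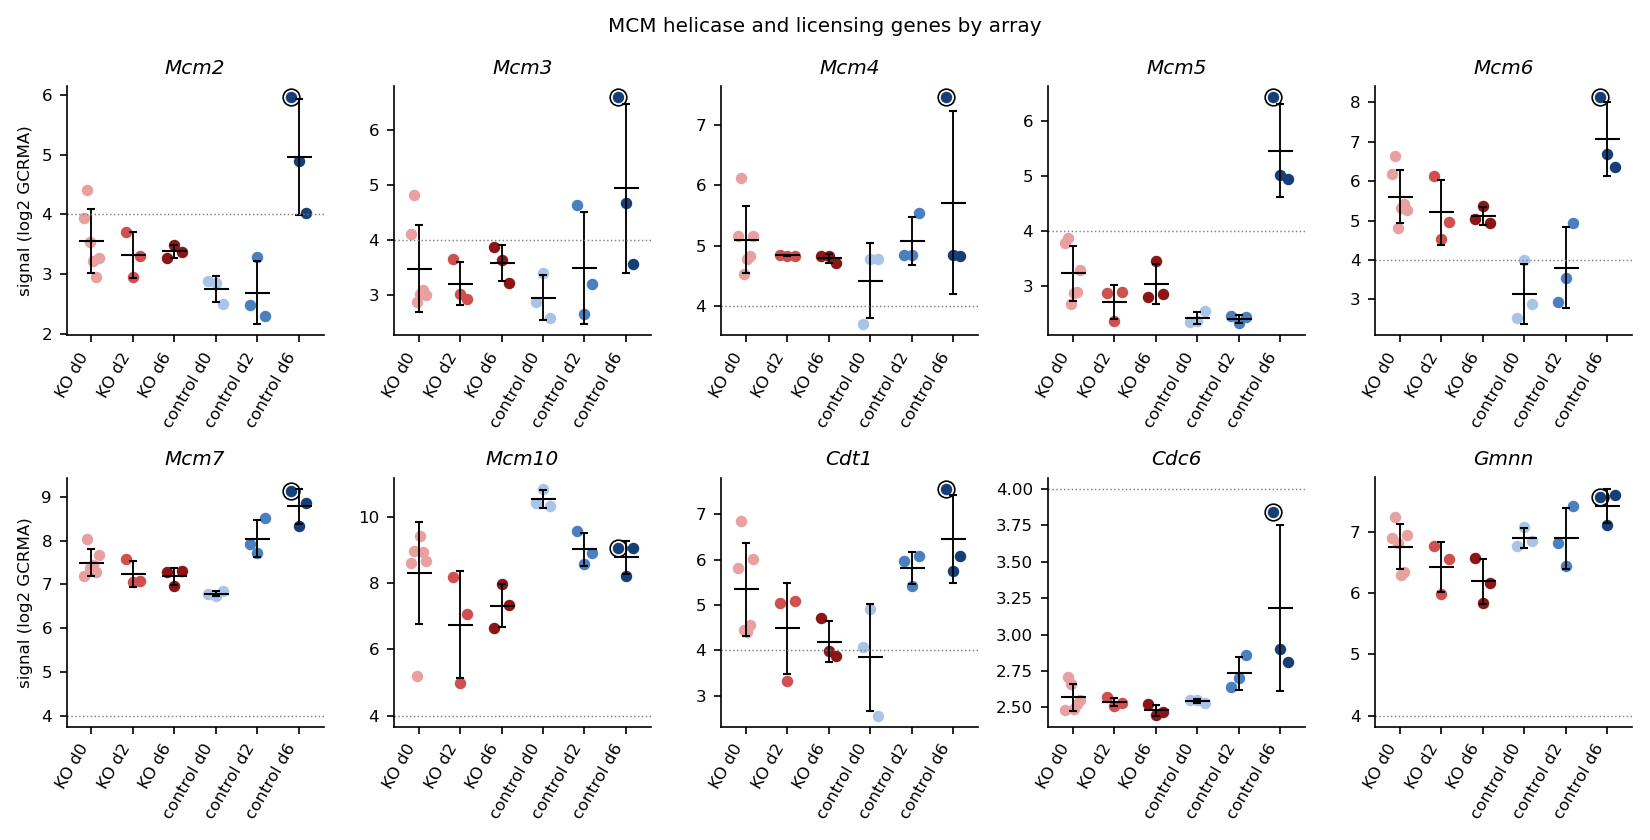
Log2 GCRMA signal (y axis) of the 10 genes in every array, in the 6 groups (x axis); bars give mean ± SD, the dotted line is log2 4 and the ring marks control mouse 303 on day 6. The control day 6 points of Mcm5, at 4.95 to 6.44, lie above every other array, and those of Mcm10 lie below its control day 0 points.

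On day 6 after surgery 4 of the 6 ring subunits were called higher in control livers than in the lobes taken at surgery, and Mcm3 and Mcm4 did not pass. Mcm2, Mcm5, Mcm6, Mcm7 and the loader Cdt1 were called higher, 5 of the 9 tested members and none lower, beside 2.12% of all tested genes called higher. With no filter on low values, 4 of 10 members were called higher (Mcm2, Mcm5, Mcm6 and Mcm7), beside 1.01% of 12393 genes. The median difference was 2.00 over the 9 members and 0.00 over all genes. Read with no filter, 9 of the 10 members had every control day 6 array above every control day 0 array, which held for 7.77% of the 12393 genes, and Mcm10 was the exception. For Cdc6 all of these values were under 4. For Mcm4 the groups were only just apart, with the lowest day 6 array at 4.84 and the highest day 0 array at 4.78.

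Mcm5, an ATPase subunit of the ring, had 6.44, 5.02 and 4.95 in control mice 303, 392 and 393 on day 6, against 2.35, 2.36 and 2.55 in control mice 263, 265 and 303 on day 0. The groups did not overlap, and the difference was 3.05 ± 0.36 (SE, adjusted p = 0.000242). Without mouse 303 on day 6 it was 2.56 (adjusted p = 0.00027). Mcm5 was under 4 in each of the other 5 groups, so the difference has its lower end near the floor. Its partner in the ring, Mcm2, had 5.96, 4.90 and 4.02 in control mice 303, 392 and 393 on day 6, against 2.89, 2.86 and 2.50 in control mice 263, 265 and 303 on day 0. The Mcm2 difference was 2.21 ± 0.41 (adjusted p = 0.00749) and 1.71 without mouse 303 on day 6 (adjusted p = 0.0209). The second Mcm2 probe set, 1434079_s_at, was above 4 in mouse 303 alone, at 5.37, with 3.52 and 3.31 in mice 392 and 393 on day 6. It was at 3.27 to 3.28 in control lobes on day 0. Its difference was 0.79 in a fit of every probe set on its own (adjusted p = 0.43).

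Mcm6, also a ring subunit, had 8.13, 6.68 and 6.37 in control mice 303, 392 and 393 on day 6, against 2.53, 3.99 and 2.88 in control mice 263, 265 and 303 on day 0. Every day 6 array was more than 2 log2 units above every day 0 array, and the difference was 3.93 ± 0.58 (adjusted p = 0.00131), or 3.39 without mouse 303 on day 6 (adjusted p = 0.00397). The second Mcm6 probe set, 1438852_x_at, was 2.38 higher in a fit of every probe set on its own (adjusted p = 0.0317). Mcm7, another ring subunit, had 9.13, 8.34 and 8.87 in control mice 303, 392 and 393 on day 6, against 6.78, 6.73 and 6.85 in control mice 263, 265 and 303 on day 0. Its difference was 1.99 ± 0.25 (adjusted p = 0.000391), and 1.82 without mouse 303 on day 6 (adjusted p = 0.000923). All 4 Mcm7 probe sets were higher on day 6, by 1.29 to 1.99, and 3 of them passed the test in the fit of every probe set.

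The remaining ring subunits, Mcm3 and Mcm4, rested on fewer animals in the probe sets that stood for them. Mcm3 had 6.60, 4.67 and 3.56 in control mice 303, 392 and 393 on day 6, against 2.86, 3.39 and 2.58 in control mice 263, 265 and 303 on day 0. The spread within day 6 was wide, and the difference of 2.00 ± 0.64 missed the threshold (adjusted p = 0.106). It was 1.17 without mouse 303 on day 6 (adjusted p = 0.334). Mcm4 had 7.45, 4.85 and 4.84 in control mice 303, 392 and 393 on day 6, against 3.71, 4.78 and 4.78 in control mice 263, 265 and 303 on day 0. In this probe set, 1416214_at, only mouse 303 stood clear: 10 of its 21 arrays lay within 0.02 of 4.83, a plateau with no order among them. Its difference was 1.29 ± 0.52 (adjusted p = 0.212), and 0.42 without mouse 303 on day 6. The second Mcm4 probe set, 1436708_x_at, had no such plateau. It had 7.17, 5.77 and 5.05 in control mice 303, 392 and 393 on day 6. All of these were above its day 0 values of 4.88, 4.65 and 3.38 in control mice 263, 265 and 303.

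Of the factors that load the ring, Cdt1 had 7.56, 5.74 and 6.07 in control mice 303, 392 and 393 on day 6, against 4.07, 4.90 and 2.56 in control mice 263, 265 and 303 on day 0. The groups did not overlap, but the call was marginal: 2.61 ± 0.69 (adjusted p = 0.0481), and 2.06 (adjusted p = 0.148) without mouse 303 on day 6. The Cdt1 call was lost in 26 of 34 alternatives. These included leaving out control mouse 392 or 393 on day 6, or any 1 of the control day 0 arrays. It was also lost with no filter, quantile normalization, median centring, array weights, and without some single KO arrays outside the comparison. Cdc6, the ATPase that acts with Cdt1, had 3.84, 2.90 and 2.81 in control mice 303, 392 and 393 on day 6, against 2.55, 2.55 and 2.53 in control mice 263, 265 and 303 on day 0. All of these values are under 4. With no filter the limma difference of Cdc6 was 0.64 (adjusted p = 0.0899). With no filter and without control mouse 303 on day 6, Cdc6 was called higher in this comparison. In that fit it was also called lower in KO than in control livers on day 6. The Cdt1 inhibitor Gmnn had 7.58, 7.11 and 7.60 in control mice 303, 392 and 393 on day 6, against 6.77, 7.09 and 6.85 in control mice 263, 265 and 303 on day 0, a difference of 0.53 ± 0.29 (adjusted p = 0.399).

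Mcm10 ran the other way. It had 9.06, 8.22 and 9.08 in control mice 303, 392 and 393 on day 6, against 10.43, 10.86 and 10.34 in control mice 263, 265 and 303 on day 0. Every day 6 array lay below every day 0 array, and the difference of -1.76 ± 0.85 missed the threshold (adjusted p = 0.312). Its SD was 0.66 to 1.63 in the KO groups and 0.28 to 0.49 in the control groups, and the fit used 1 spread for all 6. The second Mcm10 probe set, 1433407_at, was at 2.24 to 4.43 and correlated with the first at r = 0.43 over 21 arrays, and it was above 4 on 1 of the 21 arrays, that of control mouse 263 on day 2. On the control day 0 arrays the first was at 10.34 to 10.86 and the second at 2.37 to 3.23. Which of them follows Mcm10 RNA was not tested.

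Mice 303, 392 and 393 differed in how far the ring and the later cell cycle genes were raised. The mean of Mcm2 to Mcm7, each centred on its own mean over the 21 arrays, was 2.63 in mouse 303, 1.09 in mouse 392 and 0.78 in mouse 393 on day 6. The mean of 10 mitosis genes, centred likewise, was 0.17 in mouse 303, 2.03 in mouse 392 and 4.30 in mouse 393. The mouse with the highest ring mean thus had the lowest mitosis mean of the 3. The 10 macrophage markers were highest in mouse 303 too, at a mean of 9.67 log2 units, against 8.57 in mouse 392 and 6.49 in mouse 393, and none of these markers was at or under 4 on all 3 arrays. Mouse 303 also had the highest Gapdh difference of the 3, at 0.94. Its actin 3 prime minus 5 prime difference was 2.72, against 1.27 in mouse 392 and 1.72 in mouse 393. That of KO mouse 337 on day 0, an array of high Gapdh difference, was 2.48. The part of macrophages, of RNA quality and of this mouse in the member values was not tested, beyond the values given without it.

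**Figure D2:**
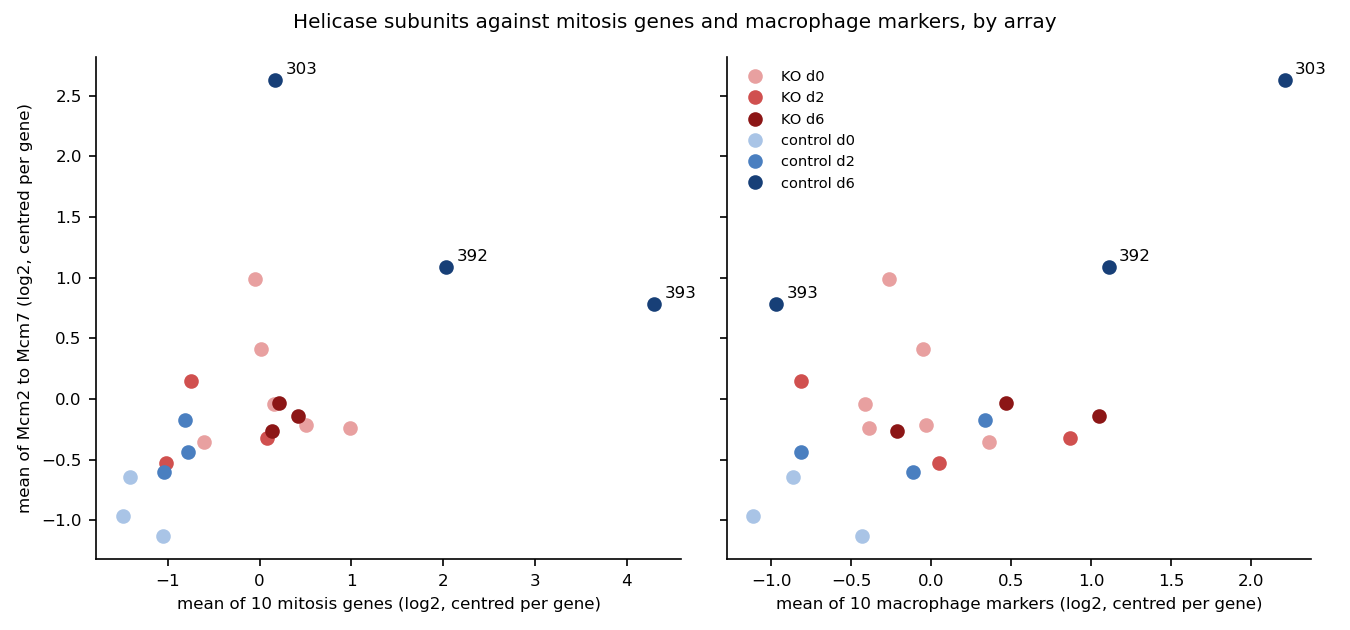
Mean of Mcm2 to Mcm7 on each of the 21 arrays (y axis) against the mean of 10 mitosis genes and against the mean of 10 macrophage markers (x axes), in log2 units, each gene centred on its mean over the arrays. Control mouse 303 on day 6 has the highest ring mean (2.63) with a mitosis mean of 0.17, and control mouse 393 on day 6 the highest mitosis mean (4.30) with a ring mean of 0.78.

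Mouse 303 is the one control animal with both a day 0 and a day 6 sample. Within it Mcm6 was higher on day 6 by 5.25, Cdt1 by 5.0, Mcm3 by 4.02, Mcm5 by 3.89, Mcm2 by 3.46, Mcm4 by 2.67 and Mcm7 by 2.28. In this animal 9 members were higher and Mcm10 was lower by 1.28. A fit with each mouse as a fixed replicate block took the day 6 difference from this animal alone, with 1 residual degree of freedom among control arrays, and called 0 members. Its adjusted p-values were 0.192 for Mcm6 and Cdt1, 0.275 for Mcm2 and Mcm5 and 0.463 for Mcm7.

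On day 2 the control livers showed less. Mcm7 was the 1 member of 9 called higher than on day 0, beside 5.23% of all tested genes, and no member was called lower. That is 1 member against that background, which does not set the members apart. With no filter, Mcm7 was again the 1 member called of 10, beside 2.62% of genes. Mcm7 had 7.91, 7.71 and 8.51 in control mice 263, 264 and 265 on day 2, against 6.78, 6.73 and 6.85 in control mice 263, 265 and 303 on day 0. The difference was 1.26 ± 0.25 (adjusted p = 0.00721), and 1.46 with an adjusted p of 0.324 in the fixed replicate block. Beside Mcm7, 2 of 3 tested neutrophil markers, S100a8 and S100a9, were called higher (list median 3.99), with list means of 5.97 to 8.20 on the control day 2 arrays and 3.65 to 4.93 on the control day 0 arrays, and Mpo, Elane, Ltf, Camp and Csf3r at or under 4 on every array of both groups. The stellate markers Col3a1 and Pdgfrb (2 of 8) and the macrophage marker Cd163 (1 of 10) were called higher too, and the hepatocyte marker Hpd (1 of 10) lower. The part of these cells in the day 2 values was not tested.

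The 4 Mcm7 probe sets disagreed on day 2. In the fit of every probe set, 1438320_s_at was 1.26 higher (adjusted p = 0.0124) and 1439269_x_at 0.84 higher (adjusted p = 0.0124), while 1416031_s_at differed by 0.25 (adjusted p = 0.46) and 1416030_a_at by -0.32 (adjusted p = 0.652). The last had 3.86, 6.30 and 5.12 in control mice 263, 264 and 265 on day 2, against 5.14, 5.55 and 5.54 in control mice 263, 265 and 303 on day 0. Its 2 lower day 2 values came from mice 263 and 265, the arrays with Gapdh differences of 1.58 and 9.50. Without the 3 arrays whose Gapdh difference was above 1, control day 2 was left with mouse 264 alone, assumed to vary like the other groups, and the Mcm7 difference was 0.92 (adjusted p = 0.21). In RefSeq the Mcm7 locus overlaps Ap4m1 and the microRNA genes Mir25, Mir93 and Mir106b, and no other member overlaps a gene there.

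**Figure D3:**
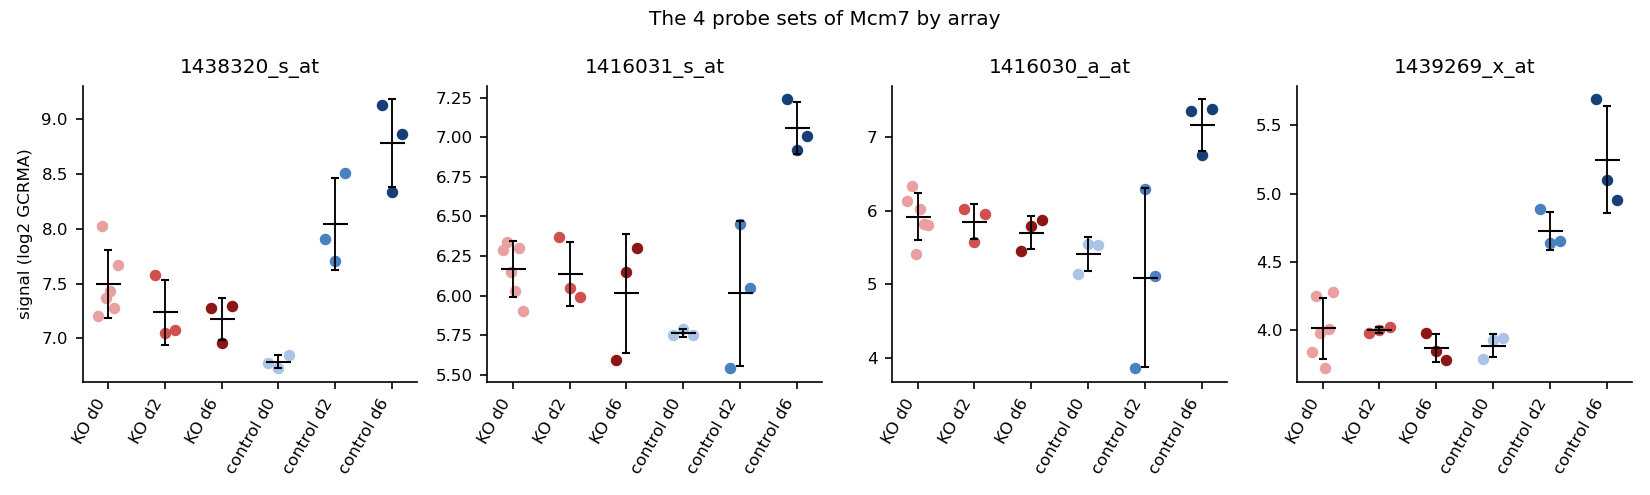
Log2 GCRMA signal (y axis, a scale of its own in each panel) of the 4 Mcm7 probe sets in every array, by group (x axis), with mean ± SD. All 4 are higher in control day 6 than in control day 0 arrays, while on control day 2 the means are 1.26 and 0.84 above day 0 for 1438320_s_at and 1439269_x_at and 0.32 below it for 1416030_a_at.

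Cdt1 was also clear of its day 0 arrays on day 2 in control livers. It had 5.97, 5.42 and 6.08 in control mice 263, 264 and 265 on day 2, against 4.07, 4.90 and 2.56 in control mice 263, 265 and 303 on day 0, a difference of 1.98 ± 0.69 that missed the threshold (adjusted p = 0.0744). Mcm5 had 2.45, 2.32 and 2.44 and Mcm2 had 2.49, 3.29 and 2.30 in control mice 263, 264 and 265 on day 2. Both genes were near the floor on day 2 as on day 0. Mcm4 differed by 0.66 ± 0.52 with no overlap, Mcm6 by 0.67 ± 0.58 and Mcm3 by 0.55 ± 0.64, and none of the 3 was called. The Mcm4 arrays were only just apart, with a day 2 low of 4.85 and a day 0 high of 4.78, near its plateau at 4.83.

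In control livers on day 6 against day 2, 3 members were called higher, Mcm2, Mcm5 and Mcm6, beside 1.07% of tested genes. With no filter the same 3 were called, beside 0.686% of genes. Mcm5 differed by 3.07 ± 0.36 (adjusted p = 0.000497), Mcm6 by 3.25 ± 0.58 (adjusted p = 0.0087) and Mcm2 by 2.27 ± 0.41 (adjusted p = 0.00918). Mcm6 had 8.13, 6.68 and 6.37 in control mice 303, 392 and 393 on day 6, against 2.94, 3.53 and 4.95 in control mice 263, 264 and 265 on day 2. The day 6 arrays of all 3 genes lay above the day 2 arrays. Without control mouse 303 on day 6 the differences were 2.58 for Mcm5 (adjusted p = 0.000332), 2.72 for Mcm6 (adjusted p = 0.0203) and 1.77 for Mcm2 (adjusted p = 0.0198). Mcm7 was higher by 0.74 ± 0.25 and did not pass. The 3 calls were lost with the fixed replicate block (adjusted p = 0.674 for Mcm2, 0.703 for Mcm5 and 0.528 for Mcm6), and without the 3 arrays of high Gapdh difference Mcm5 alone stayed called (3.15, adjusted p = 0.0412).

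In KO livers no member was called at any step after surgery. Of all tested genes 0.0% were called in either direction for day 2 against day 0, 0.137% for day 6 against day 0 and 0.123% for day 6 against day 2. At an unadjusted p under 0.05, limma gave 1, 1 and 0 of the 9 members in these 3 comparisons. Mcm6 had 5.04, 5.37 and 4.93 in KO mice 312, 332 and 337 on day 6, against a low of 4.82, a median of 5.38 and a high of 6.64 in 6 KO mice on day 0. The groups overlapped, and the difference was -0.49 ± 0.50. Mcm7 had 7.28, 6.96 and 7.30 in KO mice 312, 332 and 337 on day 6, against a low of 7.20, a median of 7.40 and a high of 8.03 in 6 KO mice on day 0, a difference of -0.32 ± 0.22. Mcm5 had 2.80, 3.46 and 2.85 in KO mice 312, 332 and 337 on day 6, against a low of 2.67 and a high of 3.87 in 6 KO mice on day 0, a difference of -0.20 ± 0.31. For 0 of the 9 members did the arrays of 2 days separate in KO livers, beside 2.57% of all tested genes for day 2 against day 0, 3.5% for day 6 against day 0 and 13.3% for day 6 against day 2.

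The 3 KO mice sampled on days 0 and 6 were also read within each animal. Mcm6 differed by -0.28, -0.06 and -0.33 in KO mice 312, 332 and 337, and Mcm7 by -0.15, -0.32 and -0.37. Both genes were slightly lower on day 6 in each of these animals, where control mouse 303 had 5.25 and 2.28. Over the 10 members, KO mouse 312 had 6 higher and 4 lower on day 6, KO mouse 332 had 3 higher and 7 lower, and KO mouse 337 had 2 higher and 8 lower.

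The difference between the genotypes in the day 6 response was tested directly, as the KO change from day 0 minus the control change. The ring subunits Mcm5, Mcm6 and Mcm7 were called lower, 3 of the 9 members beside 0.15% of all tested genes, or 11 genes called lower in all. With no filter the same 3 were called, beside 0.0726% of genes. The Mcm6 difference in response was -4.42 ± 0.76 (adjusted p = 0.0153), that of Mcm5 -3.25 ± 0.47 (adjusted p = 0.00481) and that of Mcm7 -2.31 ± 0.33 (adjusted p = 0.00481). Without control mouse 303 on day 6 they were -3.88, -2.76 and -2.13, and each was still called. The Mcm6 call was lost without KO mouse 312 or 337 on day 6, or control mouse 263 or 303 on day 0, with adjusted p-values up to 0.0737. Cdt1 (-3.77 ± 0.91, adjusted p = 0.132) and Mcm2 (-2.39 ± 0.54, adjusted p = 0.118) did not pass, and were -3.22 and -1.89 without control mouse 303 on day 6 (adjusted p = 0.201 and 0.127). On day 2 the same test called 0 members, as it called 0.0% of all genes. There limma gave 2 of the 9 members an unadjusted p under 0.05, Mcm7 (-1.52 ± 0.33, adjusted p = 0.0935) and Cdt1 (-2.85 ± 0.91, adjusted p = 0.197). The Mcm7 value is that of 1438320_s_at alone, and its 4 probe sets disagreed on day 2.

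**Figure D4:**
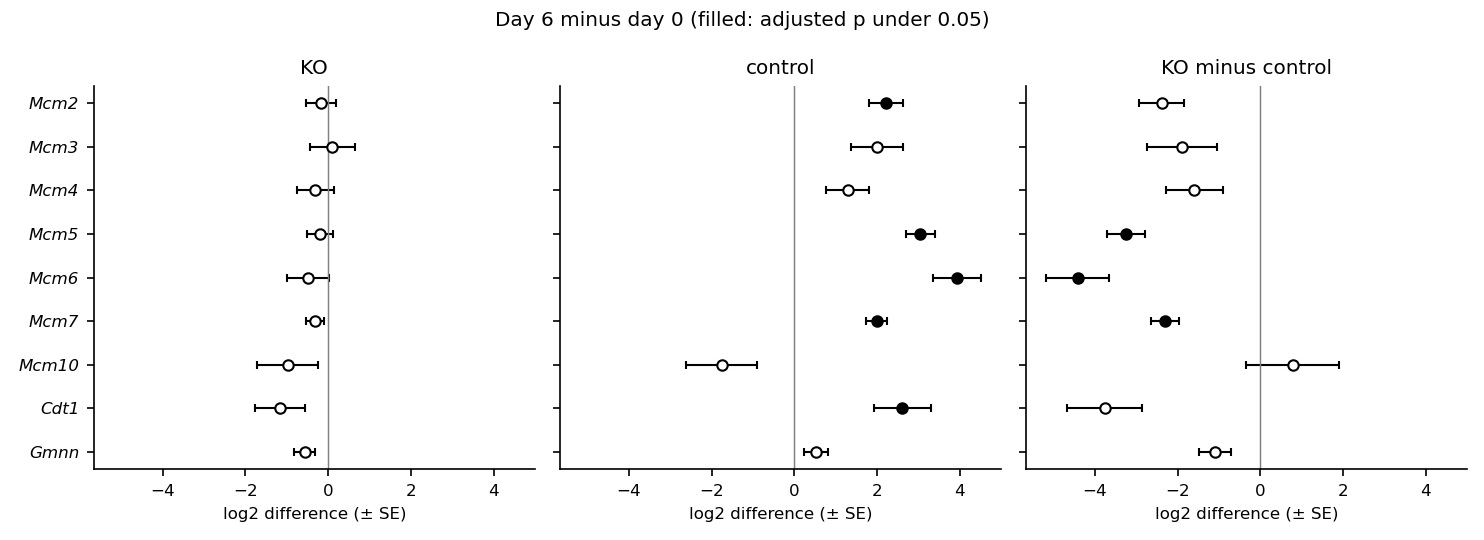
Difference of log2 signal between day 6 and day 0 (x axis, ± SE) for the 9 tested members in KO and in control livers, and the KO change minus the control change; filled points have an adjusted p under 0.05. The KO points run from -1.16 (Cdt1) to 0.10 (Mcm3), 8 of the 9 are below 0, and none is filled. Mcm5, Mcm6 and Mcm7 are filled both in control livers and in the difference of the responses.

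The genotypes were then compared on each day. In the lobes taken at surgery Mcm6 and Mcm7 were called higher in KO livers, 2 of 9 members beside 6.79% of all tested genes. With no filter Mcm6 was the 1 member called of 10, beside 3.3% of genes. Mcm6 had a low of 4.82, a median of 5.38 and a high of 6.64 in 6 KO mice on day 0, against 2.53, 3.99 and 2.88 in control mice 263, 265 and 303. The groups did not overlap, and the difference was 2.47 ± 0.50 (adjusted p = 0.00312). The call held in all 33 alternatives in which it was computed. The control group was under 4 and so near the floor. The second Mcm6 probe set differed by 1.03 in the fit of every probe set (adjusted p = 0.241).

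Mcm7 had a low of 7.20, a median of 7.40 and a high of 8.03 in 6 KO mice on day 0, against 6.78, 6.73 and 6.85 in control mice 263, 265 and 303. The groups did not overlap, but the difference of 0.71 ± 0.22 (adjusted p = 0.0466) lost its call in 19 of 33 alternatives, with adjusted p-values up to 0.16. Those 19 included leaving out any 1 of the 3 control day 0 arrays, or KO mouse 254, 258, 312 or 337 on day 0. Mcm2 (0.81 ± 0.36, adjusted p = 0.18) and Mcm5 (0.81 ± 0.31, adjusted p = 0.114) also had no overlap between KO and control arrays, and neither passed. KO mouse 254 on day 0 had the highest Mcm2 (4.41), Mcm3 (4.81), Mcm4 (6.12), Mcm5 (3.87), Mcm6 (6.64), Mcm7 (8.03) and Cdt1 (6.85) of the 6 KO lobes.

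Markers of other cell types differed between the same day 0 lobes. Of 8 tested stellate cell and fibroblast markers 6 were called higher in KO livers, Col1a1, Col1a2, Col3a1, Dcn, Lum and Pdgfrb, with a list median of 3.35 and list means of 7.98 to 9.51 in KO lobes and 5.70 to 6.00 in control lobes. Of 5 tested cholangiocyte and progenitor markers Cd24a and Tspan8 were called higher (median 1.18), with list means of 4.51 to 5.88 in KO lobes and 3.28 to 3.54 in control lobes. Of 10 macrophage markers Cd14 and Lyz2 were called higher and Cd163 lower. The part of these cells in the day 0 values of the members was not tested.

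Mcm10 was on the other side on day 0. It had a low of 5.20, a median of 8.82 and a high of 9.43 in 6 KO mice, against 10.43, 10.86 and 10.34 in control mice 263, 265 and 303. Every KO array lay below every control array, and the difference of -2.24 ± 0.73 fell just short (adjusted p = 0.0627). Without KO mouse 258, the array at 5.20, it was -1.61 (adjusted p = 0.0581). On day 2 Mcm10 had 8.20, 4.99 and 7.07 in KO mice 250, 254 and 258, against 9.57, 8.60 and 8.92 in control mice 263, 264 and 265 (-2.28 ± 0.85, adjusted p = 0.113). On day 6 it had 6.66, 7.98 and 7.34 in KO mice 312, 332 and 337, against 9.06, 8.22 and 9.08 in control mice 303, 392 and 393 (-1.46 ± 0.85, adjusted p = 0.525). Mcm10 was thus below control on all 3 days without overlap, and in the fit as reported passed the test on none. It was called in 6 of 33 alternatives on day 0 (lowest adjusted p = 0.0226) and in 2 of 33 on day 2 (lowest adjusted p = 0.0262). The second probe set, 1433407_at, was below control without overlap on days 0 and 2. On day 6 it was not clear of control, at 2.25 to 2.28 in KO livers and 2.28 to 2.63 in control livers. Read with no filter, 20.2% of the 12393 genes had every KO day 6 array below every control day 6 array.

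On day 2 no member was called between the genotypes, beside 5.71% of tested genes called in either direction, and limma gave 3 of the 9 members an unadjusted p under 0.05. Mcm7 had 7.58, 7.05 and 7.08 in KO mice 250, 254 and 258, against 7.91, 7.71 and 8.51 in control mice 263, 264 and 265. The difference of -0.81 ± 0.25 did not pass (adjusted p = 0.0649). Mcm6 was on the other side, with 6.13, 4.53 and 4.96 in KO mice 250, 254 and 258, against 2.94, 3.53 and 4.95 in control mice 263, 264 and 265 (1.40 ± 0.58, adjusted p = 0.146).

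On day 6 the ring subunits Mcm5 and Mcm7 and the Cdt1 inhibitor Gmnn were called lower in KO livers, 3 of 9 members beside 0.492% of all tested genes. With no filter Mcm5 and Mcm7 were called, 2 of 10 beside 0.403% of genes. Read with no filter, 8 of the 10 members had every KO day 6 array below every control day 6 array, which held for 20.2% of the 12393 genes, and the exceptions were Mcm3 and Mcm4. The second Mcm4 probe set, 1436708_x_at, was at 3.90 to 4.76 in KO livers and 5.05 to 7.17 in control livers, without overlap. It differed by -1.59 in the fit of every probe set (adjusted p = 0.295). The median difference was -1.58 over the members and -0.03 over all genes.

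Mcm5 had 2.80, 3.46 and 2.85 in KO mice 312, 332 and 337 on day 6, against 6.44, 5.02 and 4.95 in control mice 303, 392 and 393. The difference was -2.43 ± 0.36 (adjusted p = 0.000674), and -1.95 without control mouse 303 (adjusted p = 0.00225). Mcm7 had 7.28, 6.96 and 7.30 in KO mice 312, 332 and 337, against 9.13, 8.34 and 8.87 in control mice 303, 392 and 393. It differed by -1.60 ± 0.25 (adjusted p = 0.00138), and by -1.42 without control mouse 303 (adjusted p = 0.00711). All 4 Mcm7 probe sets were lower in KO livers, by 1.04 to 1.60. Gmnn had 6.57, 5.84 and 6.17 in KO mice 312, 332 and 337, against 7.58, 7.11 and 7.60 in control mice 303, 392 and 393. The groups did not overlap, and the difference was -1.24 ± 0.29 (adjusted p = 0.0343); the call was lost without control mouse 303 (-1.16, adjusted p = 0.0888), and likewise without control mouse 393 or KO mouse 332 or 337.

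Mcm6 had 5.04, 5.37 and 4.93 in KO mice 312, 332 and 337 on day 6, against 8.13, 6.68 and 6.37 in control mice 303, 392 and 393. The arrays were separated by 1 log2 unit, and the difference of -1.95 ± 0.58 did not pass (adjusted p = 0.112). Cdt1 (-2.27 ± 0.69, adjusted p = 0.121) and Mcm2 (-1.58 ± 0.41, adjusted p = 0.0586) were likewise below control without overlap and not called. Without control mouse 303 the differences were -1.41 for Mcm6 (adjusted p = 0.285), -1.72 for Cdt1 (adjusted p = 0.291) and -1.08 for Mcm2 (adjusted p = 0.184). In the fit of every probe set the second Mcm6 probe set, 1438852_x_at, was called lower in KO livers (-2.26, adjusted p = 0.0496). The first had -1.95 in that fit and was not called (adjusted p = 0.203).

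Markers of other cell types were read on the same day 6 arrays. The 8 tested stellate cell and fibroblast markers averaged 7.68 to 9.39 on the KO arrays and 6.17 to 6.88 on the control arrays, with Lum called higher and a list median of 1.90. The 5 cholangiocyte and progenitor markers averaged 4.22 to 5.58 on the KO arrays and 3.36 to 3.81 on the control arrays, with Tspan8 called higher and a median of 1.28. The 10 macrophage markers averaged 7.24 to 8.50 on the KO day 6 arrays and 6.49 to 9.67 on the control day 6 arrays, so the ranges overlapped, and Cd163 and Marco were called lower in KO livers. Of 8 T and NK cell markers 7 were at or under 4 on every KO day 6 array, Gzma being the other, and 8 on every control day 6 array. The part of these cells in the day 6 values of the members was not tested.

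**Figure D5:**
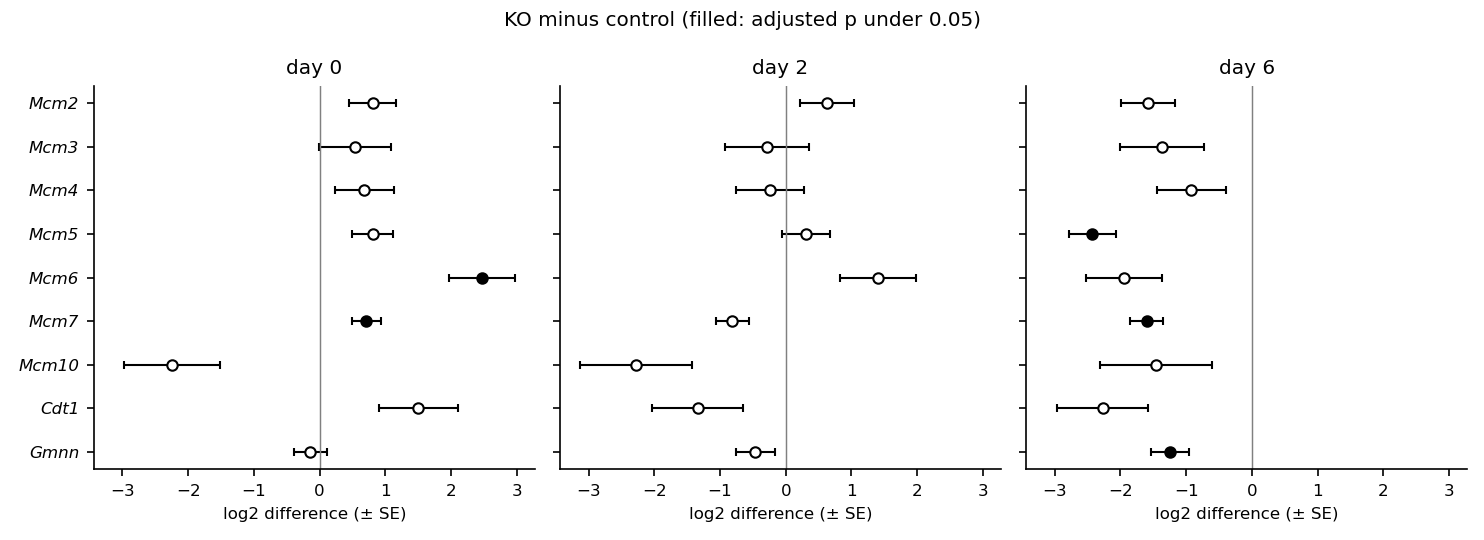
KO minus control difference of log2 signal (x axis, ± SE) for the 9 tested members on day 0, day 2 and day 6; filled points have an adjusted p under 0.05. Mcm6 and Mcm7 are filled above 0 on day 0, no point is filled on day 2, and Mcm5, Mcm7 and Gmnn are filled below 0 on day 6.

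By group, Mcm6 was highest in control livers on day 6 (7.06 ± 0.94, SD), followed by KO livers on day 0 (5.61 ± 0.67), day 2 (5.21 ± 0.83) and day 6 (5.11 ± 0.23), and lowest in control livers on day 2 (3.81 ± 1.03) and day 0 (3.13 ± 0.76). The 3 KO groups, and the control groups of days 0 and 2, differed by less than their spread. Mcm7 was highest in control livers on day 6 (8.78 ± 0.40) and day 2 (8.04 ± 0.42), with the KO groups between 7.18 and 7.50 and control livers on day 0 lowest (6.79 ± 0.06). Mcm10 was highest in control livers on day 0 (10.54 ± 0.28) and lowest in KO livers on day 2 (6.75 ± 1.63).

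Other genes of origin licensing and DNA synthesis were read from lists of pathway members. Of 25 partners of the helicase before and during its activation, 19 were on the array and 10 were tested, and 0 were called in control livers on day 6 against day 0, where limma gave the smallest p to Topbp1, which helps activate the helicase (0.76 ± 0.22, adjusted p = 0.0676). In KO against control livers on day 6 the helicase subunit Gins1 was the 1 of 10 called lower, with 3.90 ± 0.38 in KO livers and 5.52 ± 0.39 in control livers (SD, n = 3 each; difference -1.62 ± 0.39, SE, adjusted p = 0.0354); without control mouse 303 it was -1.56 and not called (adjusted p = 0.0859). Without that mouse Dbf4, a subunit of the kinase that activates the helicase, was called higher in control livers on day 6 (3.03, adjusted p = 0.0113). Of 7 tested genes for turnover of licensing factors, which include the ubiquitin ligase parts Skp2 and Cul4a, 0 were called in any of the 11 comparisons; the nearest in control livers on day 2 against day 0 was Skp2 (0.79 ± 0.30, adjusted p = 0.0991).

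Of 7 tested E2F and pocket protein genes, Rbl1, which encodes the pocket protein p107, was called higher in control livers on day 6 than on day 0 (2.31 ± 0.38, adjusted p = 0.00309, and 2.18 with adjusted p = 0.0084 without control mouse 303 on day 6) and in KO than in control livers on day 0 (1.10 ± 0.33, adjusted p = 0.0405). E2f8, a repressor of the E2F family, had its highest mean in control livers on day 2. It averaged 4.33 ± 0.40 in KO livers on day 2, against 7.15 ± 1.01 in control livers on day 2 (SD, n = 3 each). Control livers on day 2 were above control livers on day 0, at 5.10 ± 0.13, by 2.05 ± 0.41 (SE, adjusted p = 0.00654). The KO minus control difference of E2f8 was -2.82 ± 0.41 on day 2 (adjusted p = 0.000919) and -1.72 ± 0.41 on day 6 (adjusted p = 0.0334), or -1.59 on day 6 without control mouse 303 (adjusted p = 0.0913). Control day 2 holds the arrays with the Gapdh differences of 1.58 and 9.50, and their part in this value was not tested. Of 7 tested S phase cyclins and kinases, Ccnd1, which encodes cyclin D1, was called higher in KO livers on day 0 (1.85 ± 0.49, adjusted p = 0.0224) and on day 2 (2.11 ± 0.57, adjusted p = 0.0371). Without control mouse 303 on day 6, 2 of the 7 were called lower in KO livers on day 6. In that fit 1 was called higher in control livers on day 6 against day 0 and against day 2. There 1 was also called lower in the genotype difference of the day 6 response. With that mouse 0 were called in these 4 comparisons.

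Of 19 tested genes of the replication fork and of nucleotide supply, 6 were called higher and 0 lower in control livers on day 6 against day 0. They included Prim1, a primase subunit (2.57 ± 0.44, adjusted p = 0.00407), Rrm2, a ribonucleotide reductase subunit (2.32 ± 0.55, adjusted p = 0.0281), and Rfc4 of the clamp loader (2.01 ± 0.45, adjusted p = 0.0195). Without control mouse 303 on day 6 the count was again 6, with 2.73 for Prim1 (adjusted p = 0.00538), 2.78 for Rrm2 (adjusted p = 0.0144) and 2.22 for Rfc4 (adjusted p = 0.0213). The median difference was 2.00 over the 9 members, 0.54 over these 19 genes and 0.00 over all genes. In the genotype difference of the day 6 response Prim1 (-3.18 ± 0.58, adjusted p = 0.0251) and Rpa2, a subunit of the single-strand binding protein (-2.11 ± 0.39, adjusted p = 0.0262), were called lower, 2 of 19, and without that mouse they were -3.33 (adjusted p = 0.0168) and -2.0 (adjusted p = 0.0393). Of 10 tested mitosis genes 6 were called higher in control livers on day 6, with a list median of 3.67; Cdk1, the mitotic kinase, was higher by 4.62 ± 0.66 (adjusted p = 0.00109). Without control mouse 303 on day 6, 10 of the 10 were called higher, and Cdk1 by 5.65 (adjusted p = 1.32e-05). Mki67, a marker of cycling cells, averaged 5.03 in KO livers on day 6 and 5.03 on day 0. In control livers it averaged 6.87 ± 1.12 on day 6 and 2.90 ± 0.16 on day 0 (SD, n = 3 each). In the genotype difference of the day 6 response Mki67 and Top2a were called lower, 2 of 10 mitosis genes beside 0.15% of all tested genes. The list median there was -3.54, against -2.31 over the 9 members. Without control mouse 303 on day 6, 8 of the 10 mitosis genes were called lower in that response. Between the genotypes, Cdc20, Cdk1 and Mki67 were called higher in KO livers on day 0, and Pbk and Top2a lower on day 6. Of the 19 fork genes, Prim1 was called higher and Fen1 and Tk1 lower in KO livers on day 0. Fen1 was also called lower on day 2, and Fen1, Rfc5 and Rpa2 on day 6. Without control mouse 303, 8 of 10 mitosis genes and 2 of 19 fork genes were called lower on day 6.

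Across the 21 arrays the members moved together to different degrees, with the arrays sharing groups, mice and normalization. The correlation with the mean of the 9 tested members, which each member is part of, was 0.895 for Mcm5, 0.857 for Mcm3, 0.855 for Cdt1, 0.713 for Gmnn and 0.295 for Mcm10. Mcm10 correlated with Mcm6 at -0.19 and with Mcm2 at -0.09. The other genes most like the member mean were Tinf2, which encodes a shelterin protein of telomeres (r = 0.874), Lig1, which joins the fragments of the lagging strand (0.855), Rrm1, the large ribonucleotide reductase subunit (0.806), the origin recognition subunit Orc6 (0.787), Tcf19 (0.778) and Gins1 (0.774). Pola2, Dnajc9, Tbxa2r and Smc2 followed, at 0.712 to 0.741. Without control mouse 303 on day 6, r over 20 arrays was 0.791 for Tinf2, 0.775 for Lig1 and 0.493 for Tbxa2r.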

How the data were processed

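Total RNA was extracted with Trizol and labelled by a 3 prime IVT protocol, per the labels' protocols. The deposited values are log2 signals that the authors made with GCRMA (background correction and probe set summary), per the submitters' processing notes; version not given in the sources used here. That the scale is log2 was read from the range, 1.33 to 15.54. Array medians lay between 3.8 and 4.1, and 0 pairs of arrays were identical. Signals are not molecule counts, and precision rests on how many arrays a group has. Weak signals end near a floor that differs between probe sets, where changes are compressed.

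Probe sets were named from GEO's platform annotation: 20380 had 1 symbol, 691 several and 1555 none, and 64 were controls. Of these, 20351 matched RefSeq (GRCm38.p6) by Entrez ID. The probe set with the highest mean stood for a gene, and genes above log2 4 on at least 3 arrays were tested. Comparisons were contrasts in 1 limma model of 6 groups (limma 3.58.1, R 4.3.3, 15 residual degrees of freedom), two-sided, with Benjamini-Hochberg adjustment over all 7320 genes. The model was tested on simulated data. Figures used matplotlib 3.10.9.

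The members, lists, tests and naming rules were chosen with earlier results of these data known. Named were all members, a part of the called list genes (at most 5 a list and comparison, or the one with the smallest p), Abcb4, Mki67 and the 10 genes most like the member mean. A list gene that is not named may still have been called. A mouse number marks 1 animal, so same-numbered arrays are paired. Their deviations from group means correlated at -0.0568 to 0.303 over 9 pairs (median 0.119), against a median of -0.0107 for different mice. Group members are separate mice. Alternatives changed the filter, the choice of probe set, the normalization, the variance model, the arrays, the groups in the fit and the pairing.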

Additional observations from a re-analysis of the deposited data

Results flagged for a closer look

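In the 6 KO lobes of day 0, 4 of the 23 probe sets had 1 array far from the rest (by Dixon's test of the highest and lowest array, which chance alone flags in about 1 in 20 groups). Mcm10 was at 5.20 in KO mouse 258, and the next array was at 8.61. KO mouse 254 was the high array of the other 3: Cdt1 1424144_at at 5.64 (next 3.88), Mcm3 1449705_x_at at 4.55 (next 3.73) and Mcm3 1426653_at at 2.78 (next 2.26), the last under 4. The genotype difference of the day 6 response passed the test for Mcm6 (-4.42), Mcm5 (-3.25) and Mcm7 (-2.31).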

How the results depend on the processing

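Of 562 alternatives run on the 17 called member results, 480 kept the call, 82 lost it and 0 turned its direction; among results not called, 62 changed sign. The count of called members in KO against control livers on day 0, 2 as reported, was 1 with no filter, with every probe set fitted, with quantile normalization, and with no filter and without control mouse 303 on day 6 (chosen after seeing the data), 6 with array weights, and 1 to 3 leaving out each array in turn. On day 2, 0 as reported, it was 1 with a mean over probe sets, with quantile normalization and with arrays centred on their median, and 0 to 1 leaving out each array in turn. On day 6, 3 as reported, it was 0 when the fit held only the groups compared. In control livers on day 2 against day 0, 1 as reported, it was 0 with the mean of probe sets, array weights, only the groups compared, the fixed replicate block, and without the 3 arrays of high Gapdh difference. On day 6 against day 0, 5 as reported, it was 3 with a filter at log2 6 and with the mean of probe sets, 1 with only the groups compared, and 0 with the fixed replicate block. On day 6 against day 2, 3 as reported, it was 1 with the filter at log2 6, with array weights and without those 3 arrays, and 0 with only the groups compared and with the fixed replicate block. Among results not called, 12 were called in 1 or more alternatives, 26 in all. In KO against control livers on day 6, Mcm2 was called with quantile normalization, with arrays centred on their median, and without KO mouse 254 on day 0 or control mouse 393 on day 6 (lowest adjusted p = 0.0134), and Mcm6 with the mean of probe sets (adjusted p = 0.0281). Mcm2 was called in the day 6 response with array weights and without control mouse 393 on day 6. In control livers Mcm3 was called on day 6 against day 0 without that array (adjusted p = 0.022), and Mcm7 on day 6 against day 2 with the mean of probe sets (adjusted p = 0.00751). On day 0, Mcm10 was called with the mean of probe sets, median centring, array weights, and without KO mouse 250 or 254 on day 2 or KO mouse 312 on day 0, and Mcm5 with array weights and without control mouse 303 on day 6. The genotype difference of the day 2 response, 0 as reported, had 0 to 1 leaving out each array in turn. A fit of only the compared groups has fewer arrays to estimate the spread; the cause of the other changes was not tested. The mouse as a random replicate block (correlation 0.108) changed no count of called members.

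Limits: 3 arrays in each group other than KO day 0 (6), control day 2 with 2 arrays of high Gapdh difference, 1 control animal sampled on days 0 and 6, genotype and strain not separable, and members near the floor (Mcm2, Mcm3, Mcm5, Cdc6).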

Other observations

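KO mouse 254 had high member values in the lobe taken at surgery and lower ones on day 2. All 10 members were lower on day 2 in this animal, by 0.20 to 3.99: Mcm10 fell by 3.99, Cdt1 by 3.53 and Mcm6 by 2.11. KO mouse 250 had 2 members higher and 8 lower, and KO mouse 258 had 6 higher and 4 lower. In control mice 263 and 265 on day 2, 8 and 7 members were higher than in the same animal on day 0. These are single animals, with no test.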
